A study of Mus musculus with 2 samples.

Results

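The genes described here encode the glycoproteins of the extracellular matrix, the parts of elastic fibres and of basement membranes, and the enzymes that crosslink collagen and elastin. They were chosen by name, with earlier results of these data known, as 53 genes in 5 role groups. Each was read from the probe set that carries its symbol in the platform annotation. A probe set is the group of short oligonucleotides that measures the transcripts of a gene. Of the 53 genes, 50 had a probe set, out of 19505 genes on the array, and each of the 50 had 1. Efemp2, Loxl2 and Ecm1 are not analysed here.

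Epididymal fat of male mice was measured in 2 groups. WT_A12 mice are of the A/J-12SM strain, which has the chromosome 12 of SM/J on an A/J background. KO_A12 mice are of the same strain and carry, in every tissue and in homozygous form, a CRISPR/Cas9 deletion in the first exon of Iah1, which encodes a putative esterase. The KO_A12 line was kept by mating homozygotes with each other and WT_A12 mice were the strain itself, so that the groups are separate colonies and not littermates. Both groups ate a standard chow to 6 weeks of age and then a lard-based high-fat diet for 12 weeks, to 18 weeks of age, and both went without food for 4 h before the tissue was taken. The RNA of 3 mice per genotype was pooled and hybridized to 1 Clariom S Mouse Array, so that the data hold 2 arrays. All values are log2 signals, in which a difference of 1 stands for a 2-fold change in signal, and a difference is that of KO_A12 minus WT_A12. With 1 pool per genotype the spread between mice is unknown, differences cannot be set against replicates, and p-values were not computed. In bulk tissue, fewer cells of a type cannot be told apart from less RNA per cell.

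The arrays as a whole had close medians, 6.50 for WT_A12 and 6.51 for KO_A12, over 22206 probe sets. Iah1, the targeted gene, had log2 signals of 9.52 in WT_A12 and 8.35 in KO_A12. Its KO_A12 signal was above the background controls given below, although the study reports that qPCR detected no Iah1 mRNA in KO_A12 mice. The positions of the Iah1 probes relative to the deletion were not examined here. The tissue label was met by adipocyte markers, with log2 signals of 18.22 and 18.31 for Adipoq, the adiponectin gene, and of 15.10 and 15.12 for Plin1, which encodes a coat protein of lipid droplets. Both pools also had signal of other organs. Prm2, a gene of testis germ cells, was at 8.76 in WT_A12 and 6.09 in KO_A12. Alb, the serum albumin gene of hepatocytes, was at 8.22 and 15.99, and Svs2, a secretory protein of the seminal vesicle, was at 5.01 and 12.96. The median of 23 background control rows was 5.75 in WT_A12 and 5.61 in KO_A12.

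The matrix between cells is laid down in steps. Fibronectin is assembled into fibrils at the cell surface, and fibrillin microfibrils form on it as a scaffold that carries microfibril-associated glycoproteins and latent TGF-beta binding proteins. Tropoelastin is brought to this scaffold by fibulins and is then crosslinked by lysyl oxidases, which also crosslink collagen. Basement membranes are sheets of laminin, nidogen, perlecan and type IV collagen around adipocytes, vessels and muscle cells. In fat, most fibrous matrix is made by fibroblasts and progenitors, and it is known to be remodelled during high-fat feeding.

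Fn1, the fibronectin gene, and Mfap2 and Mfap5, which encode microfibril-associated glycoproteins, were called lower in the KO_A12 pool, and Loxl4, a lysyl oxidase-like gene, was called higher. Of the 50 measured genes, 33 were lower and 17 higher by any amount, against 50.1% and 49.8% of all 19505 genes. Their median log2 difference was -0.18, against -0.0009 over all genes. A gene was called lower or higher at a difference past 1 in size and a log2 signal over 7 in the pool where it was brighter, after the cutoffs of the study. By this rule those 3 of the 50 were lower, and 0.774% of all genes were lower. Only Loxl4 was called higher, and 0.523% of all genes were higher. At 1.5-fold with the same signal cutoff 11 genes were lower, or 22% of the 50 against 3.82% of all genes, and 3 were higher, or 6% against 2.12%. Of the 50 genes, 42 had a signal over 7 on both arrays and 6 on neither. Mfap2 and Fbln7 passed this signal cutoff in WT_A12 only. Among the 43 genes with a mean signal over 7 the median was -0.25, beside -0.045 for the 9189 genes of the array above that level. Of the 43, 30 were lower by any amount, as were 5140 of the 9189. By the call rule 2 of the 43 were lower and 1 higher, against 125 and 54 of the 9189. The shares over all 19505 genes given above are therefore not at like signal.

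**Figure D1:**
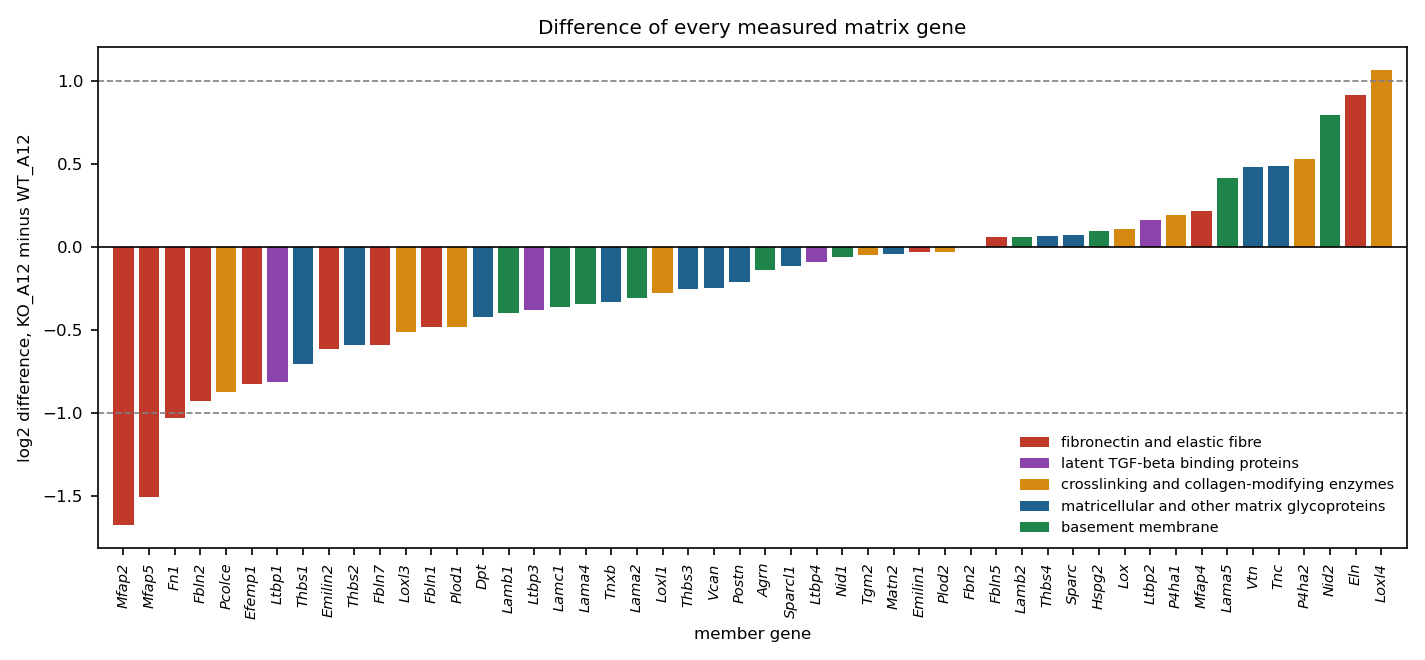
Log2 difference, KO_A12 minus WT_A12, of each of the 50 measured genes, sorted and coloured by role group, with dashed lines at the call cutoffs of -1 and 1. Bars run from -1.68 for Mfap2 to 1.07 for Loxl4, and the fibronectin and elastic fibre genes hold 5 of the 6 lowest bars.

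The lowest differences belonged to the microfibril-associated glycoproteins, small proteins that sit on fibrillin microfibrils. The log2 signal of Mfap2, which encodes MAGP-1, was 7.66 in WT_A12 and 5.98 in KO_A12, a difference of -1.68 or a 3.20-fold lower signal. In KO_A12 it was close to the median of the background controls, so that the size of this difference is uncertain. Mfap5, which encodes the related MAGP-2, had 13.71 in WT_A12 and 12.20 in KO_A12, a difference of -1.51 or 2.85-fold, far above background on both arrays. Fn1, the fibronectin gene, had 15.94 and 14.91, a difference of -1.03 or 2.04-fold. All 3 genes are past 2-fold by the rule that picked them. Of these only Mfap2 relied on a weak signal, and Fn1, at -1.03, was just past the cutoff.

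Loxl4 and Eln stood at the other end. Loxl4, a lysyl oxidase-like enzyme, had log2 signals of 7.14 in WT_A12 and 8.21 in KO_A12, a difference of 1.07 or a 2.10-fold higher signal. Eln, which encodes tropoelastin, the monomer of elastin, had 10.30 and 11.22, a difference of 0.92 or 1.89-fold, just under the cutoff. Loxl4 was thus past the call cutoff, and Eln was not.

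The genomic position of the called genes, in the GRCm38.p6 build, was chr4:141010424-141015976 for Mfap2, chr6:122513584-122529290 for Mfap5, chr1:71585473-71653280 for Fn1 and chr19:42592279-42612806 for Loxl4. Promoter sequence from RefSeq was held for 34 of the 50 genes, with 44 start sites, and not for Mfap5, Fn1, Eln or Nid2. The 250 bases before the first listed start are shown for the 3 genes of lowest and the 2 of highest difference among those held, so that the promoters of lower and higher genes can be read side by side. They are chr4:141010174-141010423 on the plus strand for Mfap2, chr6:91212514-91212763 on the plus strand for Fbln2, chr5:137611405-137611654 on the minus strand for Pcolce, chr11:54100674-54100923 on the plus strand for P4ha2 and chr19:42612807-42613056 on the minus strand for Loxl4. All are written from 5' to 3' on the gene's strand, and capitals mark matches on either strand to the GC box GGGCGG, the CCAAT box CCAAT, the TATA box TATAAA and the AP-1 motif TGANTCA, which reads the same on both strands. No 2 matches overlapped in the windows shown.
Mfap2: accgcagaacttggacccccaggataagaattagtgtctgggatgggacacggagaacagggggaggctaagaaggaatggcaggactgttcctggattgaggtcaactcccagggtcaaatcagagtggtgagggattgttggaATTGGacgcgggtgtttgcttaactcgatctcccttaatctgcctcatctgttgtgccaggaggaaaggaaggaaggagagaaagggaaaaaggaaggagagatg
Fbln2: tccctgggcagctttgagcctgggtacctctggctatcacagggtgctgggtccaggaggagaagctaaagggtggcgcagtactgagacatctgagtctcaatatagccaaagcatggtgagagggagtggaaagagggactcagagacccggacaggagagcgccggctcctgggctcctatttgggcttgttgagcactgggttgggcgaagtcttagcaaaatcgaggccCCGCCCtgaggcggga
Pcolce: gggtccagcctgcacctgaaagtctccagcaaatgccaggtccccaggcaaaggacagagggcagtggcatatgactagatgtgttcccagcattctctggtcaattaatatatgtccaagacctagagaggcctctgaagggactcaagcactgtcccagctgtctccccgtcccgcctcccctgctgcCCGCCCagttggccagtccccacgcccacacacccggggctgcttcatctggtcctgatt
P4ha2: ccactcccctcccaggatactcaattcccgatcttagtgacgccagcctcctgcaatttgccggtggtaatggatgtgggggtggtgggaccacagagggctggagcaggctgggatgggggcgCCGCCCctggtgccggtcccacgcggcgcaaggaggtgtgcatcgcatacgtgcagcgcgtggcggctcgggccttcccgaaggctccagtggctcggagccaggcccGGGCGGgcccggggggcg
Loxl4: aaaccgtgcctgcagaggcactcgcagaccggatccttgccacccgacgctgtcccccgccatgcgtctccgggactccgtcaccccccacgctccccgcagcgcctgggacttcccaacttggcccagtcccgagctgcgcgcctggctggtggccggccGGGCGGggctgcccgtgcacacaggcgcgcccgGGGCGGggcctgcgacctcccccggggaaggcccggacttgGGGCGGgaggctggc

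Mfap2 held a CCAAT box in this window, Fbln2 and Pcolce a GC box each, P4ha2 2 GC boxes and Loxl4 3. Among all 32851 promoter windows of this length 32.7% held a GC box, 33.8% a CCAAT box, 12.4% a TATA box and 6.75% an AP-1 motif. Of the 44 windows of the matrix genes 26 held a GC box, 10 a CCAAT box, 6 a TATA box and 2 an AP-1 motif. The share of G and C bases was 51.2% for Mfap2, 58.8% for both Fbln2 and Pcolce, 70.0% for P4ha2 and 76.0% for Loxl4. The median was 52.4% over all windows and 58.8% over the 44 windows of the matrix genes. The genes next in rank did not continue this order. After P4ha2, Tnc had 51.2% and 44.8% at its 2 starts and Vtn had 50.4%. After Pcolce, Efemp1 had 53.6% and Ltbp1 had 56.8% and 50.8%. The window of the second listed start of Mfap2, which is not shown, had 68.8% and 2 GC boxes, close to the share of P4ha2. Windows of neighbouring starts of a gene overlap in some cases, as for Tnc and Fbln1, but not for Mfap2 or Ltbp1. A match to these letters is a description of the sequence, not a bound site.

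Fibronectin and the elastic fibre made up the group with the lowest median, -0.59 over 13 measured genes, of which 9 were lower and 4 higher. The grouping was made with earlier results of these data known, and this group holds all 3 genes called lower. Fbln2 and Efemp1 followed the called genes. Fbln2, a fibulin that links fibronectin, fibrillin and basement membrane proteins, had log2 signals of 11.52 in WT_A12 and 10.59 in KO_A12, a difference of -0.93. Efemp1, which encodes fibulin 3, had 15.85 and 15.03, a difference of -0.82. Among the other fibulins, Fbln7 was at -0.59 with signals of 7.50 and 6.91, and Fbln1 at -0.48 with signals of 9.16 and 8.68. Fbln5, the fibulin that guides tropoelastin to microfibrils, had nearly equal signals, 13.98 and 14.04, a difference of 0.062. Of the 5 measured fibulin genes, 4 were therefore lower and the one for elastin assembly was close to 0.

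The emilins, glycoproteins at the border of elastin and microfibrils, were Emilin2, with log2 signals of 9.08 and 8.46 and a difference of -0.61, and Emilin1, with 5.74 and 5.71, near the background controls. Mfap4, which encodes a protein that binds elastin and microfibrils and is not related in sequence to Mfap2 and Mfap5, had 10.61 and 10.83, a difference of 0.22. Fbn2, a fibrillin mainly of developing tissue, was at 3.80 on both arrays, under the background controls, so that its difference of 0.00037 cannot be read.

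Latent TGF-beta binding proteins hold the inactive growth factor in the microfibril network. Of 4 genes 3 were lower, with a median of -0.23. Ltbp1 had log2 signals of 9.17 in WT_A12 and 8.35 in KO_A12, a difference of -0.81. Ltbp3 was at -0.38, with signals of 12.30 and 11.92, and Ltbp4, whose protein also binds fibulin 5 in elastic fibre assembly, at -0.088, with 11.58 and 11.49. Ltbp2, with 5.29 and 5.45, was under the background controls on both arrays. The difference thus lay mainly in Ltbp1.

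**Figure D2:**
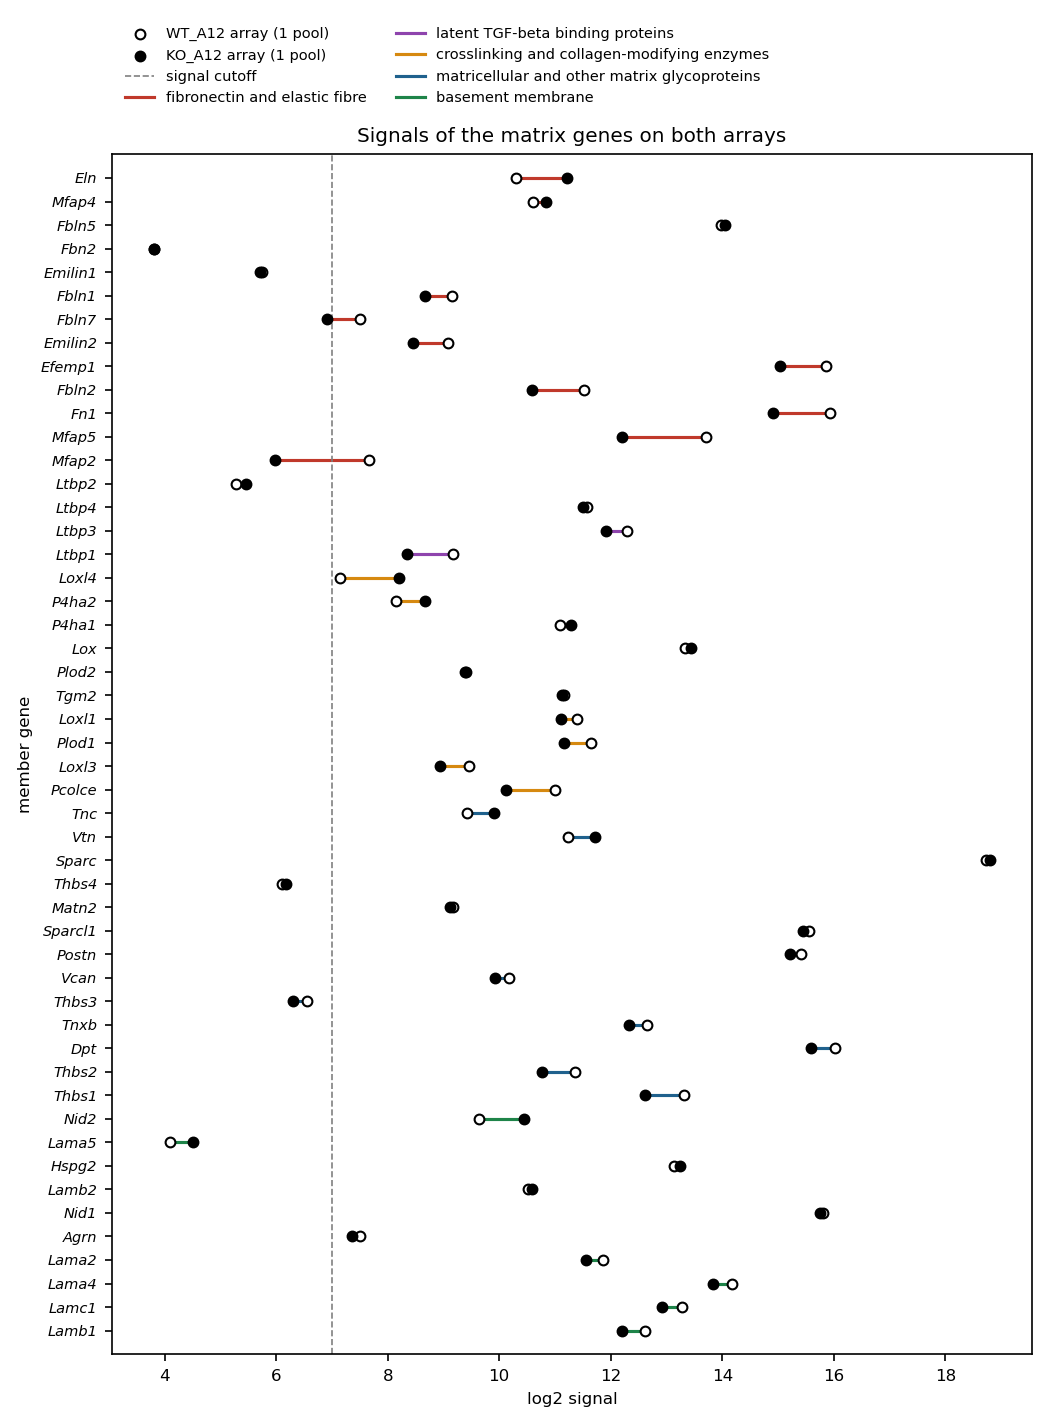
Log2 signals of the 50 measured genes in the WT_A12 pool (open circles) and the KO_A12 pool (filled circles), joined by a line in the colour of the role group, with a dashed line at the signal cutoff of 7. Mfap5 and Fn1 are lower in KO_A12 well above the cutoff, Mfap2 and Fbln7 cross it, and 6 genes lie under it on both arrays; positions of different genes are not to be compared.

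Crosslinking and collagen-modifying enzymes were split, with 6 of 10 genes lower, 4 higher and a median of -0.037, a direction that turned under quantile normalization (0.020) and under removal of a lowess trend (0.026). Lysyl oxidases oxidise lysines of collagen and elastin so that the chains join. Lox, the founding member, had log2 signals of 13.33 in WT_A12 and 13.44 in KO_A12, a difference of 0.11. Loxl1, the enzyme known for elastic fibre upkeep, was at -0.27, with 11.39 and 11.11, and Loxl3 at -0.51, with 9.45 and 8.94. Within the family Loxl4 was the only gene with a difference over 1.

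Enzymes that act inside the cell modify procollagen before it is secreted. P4ha2, a catalytic subunit of prolyl 4-hydroxylase, had log2 signals of 8.14 in WT_A12 and 8.68 in KO_A12, a difference of 0.53, and P4ha1, another catalytic subunit, was at 0.19, with 11.09 and 11.29. Plod1, a lysyl hydroxylase, was at -0.48, with 11.64 and 11.16, and Plod2, the hydroxylase of the collagen telopeptides, was at -0.029. None of the 4 passed the call cutoff, and the sign of Plod2 turned under quantile normalization, to 0.047, and under removal of a lowess trend, to 0.050. Pcolce, which enhances the removal of the C-propeptide of procollagen outside the cell, had 11.00 and 10.13, a difference of -0.87 and the lowest of the group. Tgm2, the transglutaminase that crosslinks fibronectin and other proteins, was at -0.045, with 11.16 and 11.12.

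Matricellular and other glycoproteins had a median of -0.21, with 9 of 13 genes lower and none past 2-fold. The thrombospondins of the trimeric class were lower. Thbs1, which can activate latent TGF-beta, had log2 signals of 13.31 in WT_A12 and 12.61 in KO_A12, a difference of -0.70. Thbs2, an inhibitor of vessel growth, had 11.37 and 10.77, a difference of -0.59. The pentameric thrombospondins Thbs3 and Thbs4 were weak, at 6.56 and 6.31 and at 6.11 and 6.18, and both were under 7.

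Dpt, which encodes dermatopontin, a binding partner of decorin and fibronectin, had log2 signals of 16.02 and 15.60, a difference of -0.42. Tnxb, the tenascin of collagen-rich tissue, was at -0.33, with 12.65 and 12.32, and Vcan, the large proteoglycan versican, at -0.25, with 10.17 and 9.92. Postn, the gene of periostin, a matricellular protein of fibroblasts, had 15.42 and 15.21, a difference of -0.21. These 4 were lower by less than 1.5-fold. Differences close to 0 were found for Sparcl1 at -0.11, for Matn2, a filament-forming matrilin, at -0.041, and for Sparc, a collagen-binding protein abundant in fat, at 0.075 with signals of 18.73 and 18.80.

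Tnc and Vtn were the higher members of this group. Tnc, a tenascin induced in injury and remodelling, had log2 signals of 9.42 in WT_A12 and 9.90 in KO_A12, a difference of 0.49. Vtn encodes vitronectin, an adhesive protein that the liver secretes into plasma, and had 11.24 and 11.73, also a difference of 0.49. All 10 hepatocyte markers were higher in the KO_A12 pool, with a mean log2 signal of 5.12 in WT_A12 and 9.09 in KO_A12, and 8 of them were under the background controls in WT_A12 against 1 in KO_A12. Their part in the difference of Vtn was not tested, nor was it for Fn1, which the liver also makes and which was lower.

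Basement membrane genes showed small differences, with 6 of 10 lower, 4 higher and a median of -0.098. Of the laminin chains, Lamb1, Lamc1, Lama4 and Lama2 were lower by less than 1.5-fold. Lamb1, the beta 1 chain, had log2 signals of 12.61 in WT_A12 and 12.21 in KO_A12, a difference of -0.40. Lamc1, the gamma 1 chain, was at -0.36, Lama4, the alpha 4 chain of vessels and adipocytes, at -0.34 and Lama2, the alpha 2 chain of muscle, at -0.31. Lamb2, the beta 2 chain, was at 0.064, with 10.52 and 10.58, and Lama5 was under the background controls on both arrays, at 4.09 and 4.52. The 4 lower chains thus lay within 0.1 of each other.

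The nidogens, which join laminin to type IV collagen, parted. Nid2 had log2 signals of 9.65 in WT_A12 and 10.44 in KO_A12, a difference of 0.80 or 1.74-fold, and Nid1 had 15.81 and 15.76, a difference of -0.057. Perlecan and agrin, the heparan sulfate proteoglycans of basement membranes, were at 0.096 for Hspg2, with 13.14 and 13.24, and at -0.14 for Agrn, with 7.50 and 7.36. Nid2 was therefore the only gene of the basement membrane group past 1.5-fold.

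Differences of bright genes scattered less over the array than those of weak ones, which bears on how a given value is read. Over the 1307 genes with a mean log2 signal above 13, 95% of differences lay between -0.60 and 0.44, and of the 12 matrix genes in this range Fn1 and Efemp1 lay outside. Over the 1964 genes between 11 and 13 the bounds were -0.72 and 0.54, with Mfap5 and Fbln2 of 14 outside. Over the 2854 genes between 9 and 11 they were -0.85 and 0.64, with Pcolce, Nid2 and Eln of 10 outside. Thus 7 of the 36 matrix genes above 9 lay outside the central range of genes of like signal, 5 on the lower and 2 on the higher side. Between 7 and 9 the bounds were -0.94 and 0.82, and Loxl4 lay outside, and under 7 they were -0.84 and 0.97, and Mfap2 lay outside.

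**Figure D3:**
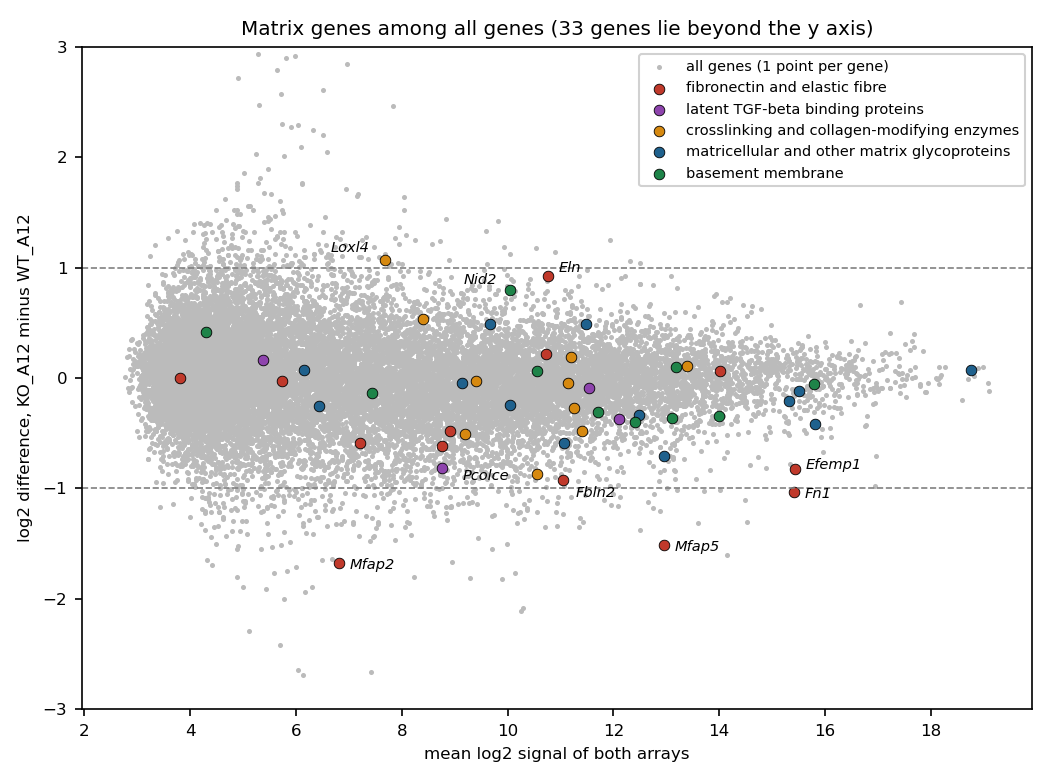
Log2 difference, KO_A12 minus WT_A12, against the mean log2 signal of both arrays for all 19505 genes (grey) and the 50 matrix genes (coloured by role group), with dashed lines at -1 and 1; 33 genes lie beyond the y axis. The grey cloud narrows toward high signals, and Mfap5, Fn1 and Efemp1 lie under it while Eln and Nid2 lie near its upper edge.

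Other genes of the matrix, many of them weak, did not share a direction as a whole. Of 91 further measured genes in 5 lists, 48 were lower and 43 higher, with a median of -0.035. By the call rule 0 were lower and 2 higher, against 0.774% and 0.523% of all genes. Only 48 of the 91 had a mean log2 signal over 7, and 23 were under the background controls on both arrays. For the 50 genes of the set these counts were 43 and 3, so the comparison is not at like signal. The receptors came closest to the glycoproteins, with 13 of 22 genes lower and a median of -0.28. Among them Cd44, a receptor of hyaluronan, was at -0.75, with log2 signals of 13.41 in WT_A12 and 12.66 in KO_A12, Itga11, a collagen-binding integrin of fibroblasts, at -0.72, and Itga6, a laminin-binding integrin, at 0.66. The other collagen-modifying and crosslinking genes had a median of 0.013 over 16 genes, with Pcolce2, a relative of Pcolce, at 0.69, Bmp1, the protease that removes the C-propeptide, at -0.48 and P3h2, a prolyl 3-hydroxylase, at -0.46. Pcolce and Pcolce2 thus lay on opposite sides of 0.

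The other elastic fibre-associated genes had a median of -0.023 over 13 genes, with Mmrn1, a multimerin of platelets and endothelium, at 0.95, Adamtsl3 at -0.56 and Adamts10, which acts on fibrillin microfibrils, at 0.39. The other matrix glycoproteins had a median of -0.035 over 36 genes, with Srpx at -0.95, Ccn3 at -0.58 and Ccn2, a matricellular target of TGF-beta, at 0.50. The other laminin chains had a median of -0.0028 over 4 genes. The 2 called genes were Lamc3, the laminin gamma 3 chain, with log2 signals of 7.27 and 8.31, and Fras1, a basement membrane protein of epithelia, with 5.81 and 7.27, which was chosen after its value was seen.

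Marker lists of fibroblasts and macrophages had lower medians in the KO_A12 pool, -0.36 and -0.67. Of 8 markers of fibroblasts and adipose progenitors 7 were lower, from -1.35 for Cd248 to 0.083 for Pdgfrb, and their mean log2 signal was 10.64 in WT_A12 and 10.11 in KO_A12. Their first 2 measured markers, Pdgfrb and Cd34, were at 0.083 and -0.086. Of 9 macrophage markers 8 were lower, with -0.57 for Adgre1 and -0.67 for Csf1r, and their mean was 12.67 and 11.99. No marker of these lists was under the background controls on either array. Their part in the lower signals of Mfap5, Fn1 and the fibulins was not tested.

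Vessel, muscle and mesothelial marker lists had higher medians, 0.34, 0.29 and 0.52. Of 9 endothelial markers 8 were higher, with 0.40 for Pecam1 and 0.34 for Cdh5, and their mean log2 signal was 11.53 in WT_A12 and 11.88 in KO_A12. All 8 smooth muscle markers were higher, with 0.17 for Acta2 and 0.59 for Myh11, and their mean was 9.31 and 9.74. Of 8 mesothelial markers 7 were higher, with 0.84 for Msln and 0.90 for Upk3b, and their mean was 7.11 and 7.62. Their part in the higher signals of Eln, Nid2 and Loxl4 was not tested. The 9 white adipocyte markers lay between -0.095 and 0.34, with a mean of 17.19 and 17.22. Signal of organs outside fat also differed, since all 7 seminal vesicle markers were higher, with a mean of 4.33 and 9.99, and all 8 testis germ cell markers were lower, with a mean of 6.70 and 5.41, among them Prm1 at -0.68 and Prm2 at -2.67. In the seminal vesicle list Svs1 was at 3.60 and Svs2 at 7.96, and in the hepatocyte list Alb was at 7.76 and Ttr, the transthyretin gene, at 5.78. All 7 seminal vesicle markers and 8 of the 10 hepatocyte markers, Ttr among them, were under the background controls in WT_A12, so that the sizes of these differences are uncertain there. Of the 8 testis germ cell markers 5 were under the background controls in KO_A12 and 3 on both arrays, so that their differences are uncertain too.

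**Figure D4:**
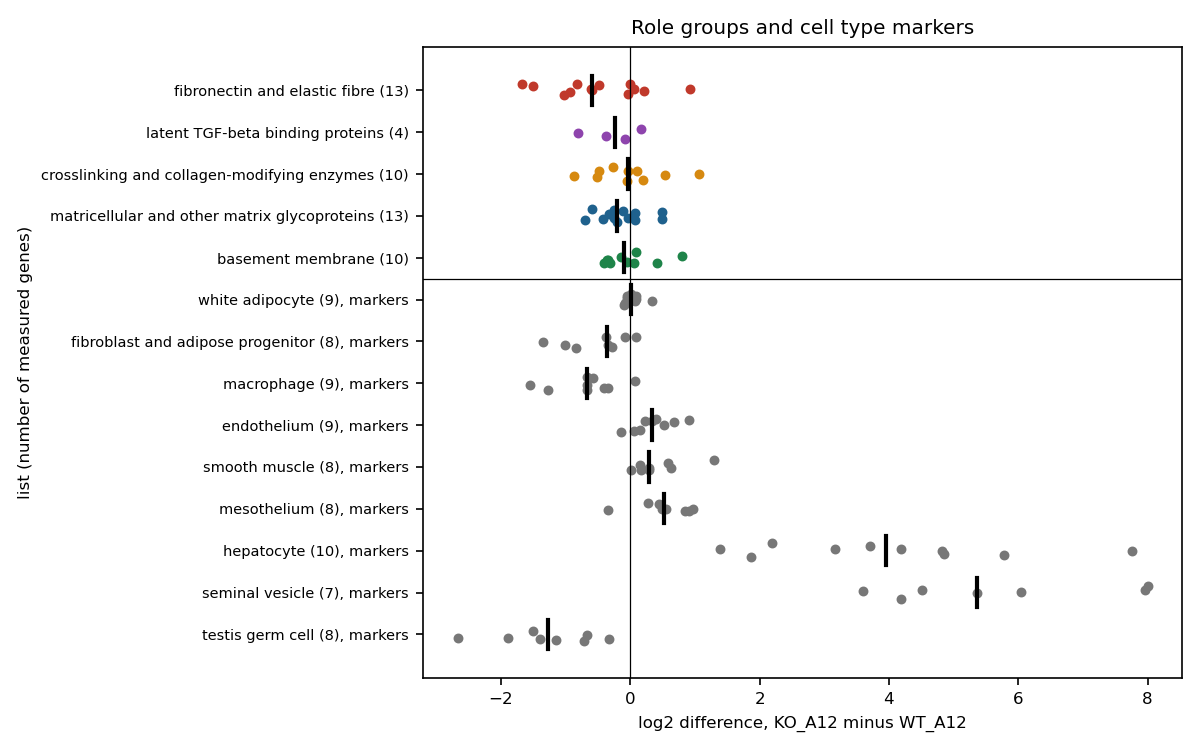
Log2 difference, KO_A12 minus WT_A12, of each gene (points) in the 5 role groups of the matrix genes (top, coloured) and in 9 lists of cell type markers (bottom, grey), with a black bar at the median of each list and the number of measured genes in brackets. The fibronectin and elastic fibre group has a median of -0.59, between those of fibroblasts and progenitors at -0.36 and macrophages at -0.67. The endothelium is at 0.34, and the basement membrane group at -0.098 lies near 0. How the groups relate to the marker lists was not tested.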

How the data were processed

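Pooled epididymal fat RNA of 3 mice per genotype, labelled from 100 ng, was measured on 1 Clariom S Mouse Array for WT_A12 and 1 for KO_A12. The deposited values are log2 signals that the authors computed by SST-RMA (the methods spell it STT-RMA) with the GeneChip Console Software 1.3.0. It subtracts background, scales the arrays to each other and combines the probes of a set. The submitters' processing notes name RMA. Such scaling can shrink a difference shared by most genes. No genome build for these values is named (not given in the sources used here).

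Of 28846 rows, 6640 controls were left out. Of the 22206 probe sets kept, 19572 have 1 symbol in the platform annotation, 2634 have none and 0 have several, and all 19572 matched RefSeq (GRCm38.p6) by Entrez ID. The 19505 genes were each read from the probe set of highest mean signal, since 55 genes have several. The signals were used as deposited, with no filter beyond the call cutoffs of 2-fold and a log2 signal over 7. For arrays, their number limits the precision.

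The genes, role groups and lists were chosen with earlier results of these data known. The text names every measured gene of the set, up to 3 genes of each further matrix list with the largest difference in size at a mean signal over 7, the first 2 measured genes of each marker list, and Iah1, with the extremes of a list where given. Alternatives were median centring, quantile normalization, a lowess trend (span 0.3), other probe sets, other cutoffs, a filter on mean signal, and list means instead of medians. The computation of calls was checked on simulated arrays, with shifts past the call cutoff planted in bright genes and a narrower spread than seen here. That check does not bear on whether calls from these pools would repeat. The planned protein sequences were not printed, and promoters are shown instead. Computations ran in Python 3.11.15 (pandas 2.3.3, numpy 2.4.6, statsmodels 0.14.6, matplotlib 3.10.9).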

Additional observations from a re-analysis of the deposited data

How the results depend on the processing

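No paired analysis was possible because the design holds a single array for WT_A12 and a single array for KO_A12. Values that moved by under 0.1 on the log2 scale, and counts that changed by at most 1.5 times, are called kept. Under median centring, quantile normalization and removal of a lowess trend all 150 values of the 50 genes were kept, the largest move being 0.085, and 8 signs turned among Fbn2, Matn2, Plod2 and Tgm2, whose differences were near 0. These scalings start from normalized signals and do not undo the authors' own. The counts of called genes were 3 lower and 1 higher under each of them, and 2 lower and 1 higher with a signal over 7 on both arrays, which leaves out Mfap2. A cutoff of 1.5-fold gave 11 lower and 3 higher, and one of 3-fold gave 1 and 0, since a looser or stricter cutoff passes more or fewer genes. With a mean signal over 7 only, the median was -0.38 for the latent TGF-beta binding proteins, 0.73 for mesothelium, 5.32 for hepatocytes, 7.98 for the seminal vesicle and -0.68 for testis germ cells. Where list means replaced medians, the values were -0.52 for fibroblasts and adipose progenitors, 0.43 for smooth muscle and 5.67 for the seminal vesicle. The median of the crosslinking and collagen-modifying enzymes, near 0, turned to 0.020 under quantile normalization and to 0.026 without the lowess trend. Within 0.1, the other alternatives kept the medians of the 50 genes, of the role groups and of the marker lists. Each gene of the set has 1 probe set, so the choice of probe set cannot change it. For genes near the background controls, such as Mfap2 in KO_A12, the size of a difference is uncertain.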
